A study of Rattus norvegicus with 11 samples.

Results

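Astrocyte and radial glia marker genes were followed in cultures of rat hippocampal neurons. The 34 members were the genes whose symbol equals one of the listed names, of 42172 genes in the count tables. The rule matches names, but the list was chosen with earlier results of these data known. Shares of members called are therefore not those of a list drawn up blind to the data. Radial glia are the stem cells of the developing brain, which make neurons and later astrocytes. Astrocytes hold filaments of GFAP and vimentin, are joined to each other by connexin channels, take up glutamate and potassium that neurons release, and secrete lipoproteins and other proteins. Primary neuron cultures usually contain some of these cells, and Notch, BMP and JAK-STAT signalling are known to drive the change of neural precursors to an astrocyte fate.

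Polyadenylated RNA was sequenced from 11 libraries of primary hippocampal neurons of Sprague Dawley rats at day 7 in vitro. Neurons expressed an introduced copy of H1.4, a linker histone that binds between nucleosomes, in its wild-type form (WT H1.4, or WT, 4 libraries, WT 1 to 4) or with a frameshifted C-terminal tail (H1.4 CFT, or CFT, 4 libraries, CFT 1 to 4). Controls expressed green fluorescent protein (GFP, 3 libraries, GFP 2 to 4). All groups thus carry an introduced gene, and a culture without one was not analysed here. H1.4 CFT against WT H1.4 asks what the altered tail changes, and the comparisons with GFP ask what each form of H1.4 changes against an unrelated protein. The promoter and vector of these constructs, the species of the H1.4 sequence, the share of cells that expressed it and whether glial cells expressed it are not given in the labels. The libraries are described as biological replicates, and nothing says whether they came from separate dissections, so the p-values measure the spread between these libraries.

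Each library held 12070941 to 18846492 reads in genes. Levels are in CPM, the normalised read count scaled to the reads in genes of each library, and are not corrected for gene length, so levels are compared between libraries and not between genes. A gene is said to have risen or fallen only where its adjusted p in the edgeR quasi-likelihood test over all 17294 genes was under 0.05, and a log2 difference of 1 is a doubling of the level. The rat gene H1f4 had 1 to 5 reads in the WT libraries, 5 to 8 in CFT and 0 to 2 in GFP, too few to check the constructs. The members summed to 6229.9 to 6505 CPM in WT, 7559 to 7666 in CFT and 7253 to 7633 in GFP, beside 10694 to 10859, 7428 to 8728 and 10160.3 to 10703 CPM for 16 neuron genes. In bulk RNA a smaller number of cells of a type and less RNA per cell cannot be told apart.

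Astrocyte and radial glia markers were lower in WT than in the other groups by their summed level, and most of them rose in CFT against WT. Of the 33 members with enough reads to test, 19 rose in CFT compared with WT (57.6%) and 0 fell, where 16.7% of all genes tested rose, 19.2% fell and thus 35.9% moved in either direction. The median log2 difference of the members was 0.24, against 0.02 over all genes, and single members ranged from -0.33 (Sparcl1) to 1.09 (Ntsr2). The CPM values of the groups did not overlap in 19 members, all higher in CFT, where 16.1% of all genes were higher without overlap and 18.5% lower. These were the risen members without Vim, together with Slc1a3, which did not pass the test. Each of the 19 rises kept its call when any 1 library was left out and under each scaling of the libraries that was tried. All 19 also kept it with the replicate number as a block. There Ppp1r3c (log2 difference -0.33, adjusted p = 8.19e-05) and Sparcl1 (-0.34, adjusted p = 6.7e-06) fell, while Slc4a4, Aldh1l1 and Id4 also rose. Sparcl1 fell with DESeq2, limma-voom and a non-robust spread too.

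Few genes of the whole table differed between WT and GFP, and 11 of the 88 that fell in WT were members. Compared with GFP, 11 members fell in WT (33.3% of 33) and 0 rose, where 0.509% of all genes tested fell and 0.434% rose, 0.943% in either direction. The median log2 difference was -0.20, against 0.00 over all genes, and the values did not overlap in 20 members, all lower in WT, where 5.94% of all genes were lower without overlap and 6.29% higher. Without GFP 3 the count of members that fell was 7, and without GFP 4 it was 6. The 6 members that kept their call whichever library was left out were Gfap, Gja1, Mlc1, Glul, Acsbg1 and Fabp7. With the low-count filter removed the count was 18, which included 7 further members (Nes, Hepacam, Atp1b2, Apoe, Cst3, S100b and Ndrg2). Of the 29259 genes then tested 215 fell.

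Compared with GFP, CFT libraries had both rises and falls among the members. There were 7 rises (Gja1, Mlc1, Apoe, Clu, Ntsr2, Ndrg2 and Id4) and 3 falls (Glul, Tlcd1 and Cst3), where 13.3% of all genes tested rose and 16.2% fell, 29.5% in either direction. As shares of the 33 tested members these are 21.2% and 9.09%, nearer to the background than in the other comparisons. The median log2 difference was 0.07, against 0.01 over all genes, and single members ranged from -0.74 (Tlcd1) to 0.61 (Ntsr2). Values did not overlap in 10 members that were higher and 3 that were lower in CFT, where 17% of all genes were higher without overlap and 18.5% lower. With the replicate number as a block, 6 members fell in place of 3, the added ones being Aldh1l1 (-0.42, adjusted p = 0.000193), Ppp1r3c (-0.22, adjusted p = 0.0104) and Sparcl1 (-0.26, adjusted p = 0.000573). The 3 comparisons share libraries, so their counts are not independent of each other, and each is given below with its own values.

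**Figure D1:**
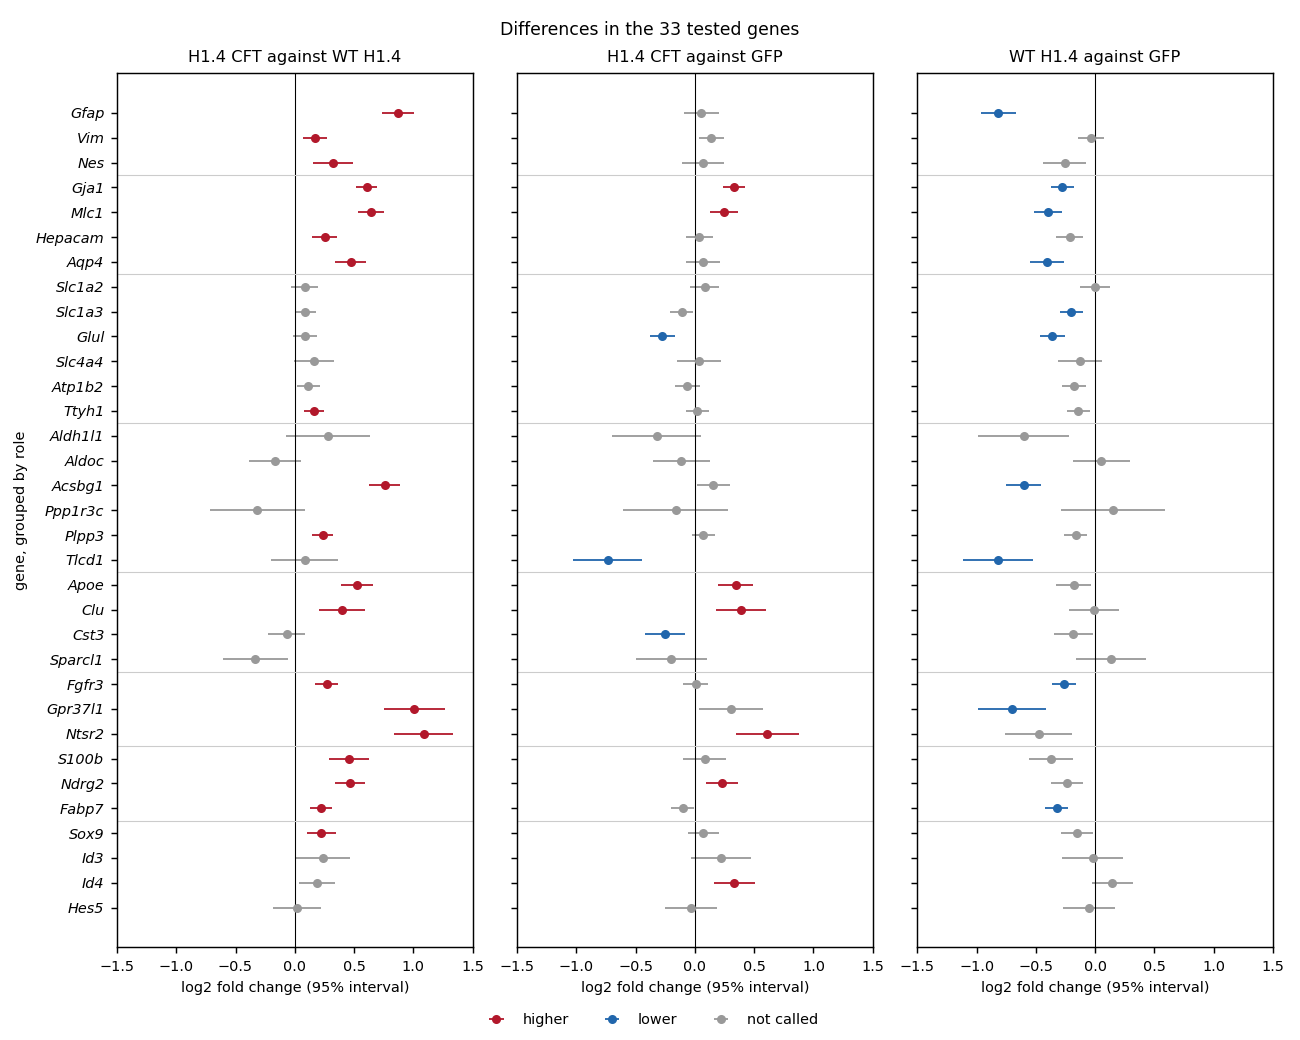
Log2 difference of each of the 33 tested members (points, with 95% intervals as bars) in CFT against WT, CFT against GFP and WT against GFP, with members in order of role and coloured by whether they rose, fell or were not called. In the left panel 19 members lie to the right of 0 with a call, and in the right panel 11 lie to the left of 0 with a call.

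The 4 members with the smallest p in CFT against WT were Gja1, Mlc1, Acsbg1 and Gfap, and the stretch of 250 bases before the start of each is shown because these genes rose together in that comparison. The sequences come from RefSeq (build GRCr8, whereas reads were aligned to mRatBN7.2) and are written 5′ to 3′ on the strand of the gene. Capitals mark letters that match one of 3 motifs on either strand: TGGGAA, bound by the Notch effector RBPJ, TTCNNNGAA, bound by STAT factors, and TTGGCA, bound by nuclear factor I. Gja1 lies at chr20:36302314-36302563, plus strand, Mlc1 at chr7:121946699-121946948, minus strand, Acsbg1 at chr8:63943279-63943528, minus strand and Gfap at chr10:88361662-88361911, minus strand.
Gja1: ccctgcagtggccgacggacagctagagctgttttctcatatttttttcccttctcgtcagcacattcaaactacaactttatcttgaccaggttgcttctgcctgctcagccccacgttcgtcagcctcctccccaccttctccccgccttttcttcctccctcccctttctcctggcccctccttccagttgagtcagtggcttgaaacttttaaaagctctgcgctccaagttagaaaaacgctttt
Mlc1: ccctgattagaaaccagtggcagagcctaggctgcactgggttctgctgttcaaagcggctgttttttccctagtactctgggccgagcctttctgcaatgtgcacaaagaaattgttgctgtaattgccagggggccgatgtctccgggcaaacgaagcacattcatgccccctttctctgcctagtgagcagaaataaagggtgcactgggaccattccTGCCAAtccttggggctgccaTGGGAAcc
Acsbg1: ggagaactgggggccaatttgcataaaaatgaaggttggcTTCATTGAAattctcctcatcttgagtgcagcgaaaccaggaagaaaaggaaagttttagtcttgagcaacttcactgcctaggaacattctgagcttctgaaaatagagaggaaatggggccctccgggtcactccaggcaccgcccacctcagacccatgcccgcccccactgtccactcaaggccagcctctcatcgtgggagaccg
Gfap: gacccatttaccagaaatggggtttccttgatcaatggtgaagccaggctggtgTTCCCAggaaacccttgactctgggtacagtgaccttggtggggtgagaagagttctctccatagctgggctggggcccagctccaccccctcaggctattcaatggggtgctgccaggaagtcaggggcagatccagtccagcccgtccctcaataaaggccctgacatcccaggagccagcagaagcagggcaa
None of the 3 motifs was found in the Gja1 stretch. Mlc1 held the RBPJ and the nuclear factor I letters close to the start, Acsbg1 the STAT letters and Gfap the RBPJ letters. Of the 34 members 32 had a promoter entry (Sox9 and Clu had none). The RBPJ letters were present in 10 of the 32 and in 22.1% of 33469 promoters of that length, the STAT letters in 3 and 7.67%, and the nuclear factor I letters in 6 and 12%. Members were counted once per gene, with a match in any entry, whereas the percentages are over promoter entries. A match describes the letters only and does not show that a factor binds there.

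Among the intermediate filament genes, Gfap, the filament protein of astrocytes, had the lowest adjusted p of its role group in both comparisons with WT. Its level was 292, 329, 302 and 296 CPM in WT 1 to 4, 509.8, 514, 601 and 602 CPM in CFT 1 to 4 and 489.6, 569.8 and 551 CPM in GFP 2 to 4. Every WT library lay far below every CFT and GFP library, and the CFT and GFP libraries overlapped. Gfap was 1.83-fold higher (log2 difference 0.87, SE 0.064, adjusted p = 2.08e-07) in CFT than in WT. In WT it was 1.76-fold lower (log2 difference -0.82, SE 0.069, adjusted p = 5.21e-05) than in GFP, and the difference of CFT from GFP was 0.05 (SE 0.069, adjusted p = 0.607).

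Nes, the nestin filament of neural progenitors, stood at 126, 127, 141 and 123 CPM in WT 1 to 4, 145, 148, 175 and 179.9 CPM in CFT 1 to 4 and 139.6, 159.9 and 164 CPM in GFP 2 to 4. Every CFT library was above every WT library, and GFP libraries overlapped both groups. Nes rose to a level 1.25-fold higher (log2 difference 0.32, SE 0.077, adjusted p = 0.0053) in CFT than in WT. It did not pass in WT against GFP, where the log2 difference was -0.26 (SE 0.084, adjusted p = 0.216). Vim, the vimentin filament that radial glia share with vascular cells and fibroblasts, was at 320.5 to 364 CPM in WT, 362 to 401 CPM in CFT and 338 to 356 CPM in GFP, and rose 1.13-fold in CFT against WT (adjusted p = 0.00899) although WT 2 (364 CPM) lay above CFT 1 (362 CPM). Against GFP its adjusted p in CFT was 0.0501, and it became 0.0441 without WT 2, 0.0293 without CFT 1 and 0.0303 without CFT 2. The ratio of Gfap to Vim within a library, chosen after the values were seen, was 0.840 to 0.941 in WT, 1.41 to 1.52 in CFT and 1.43 to 1.63 in GFP, so the filament genes did not differ by an equal factor.

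Of the 5 genes of junctions and endfeet 4 were tested, and all 4 rose in CFT against WT. Gja1, which encodes connexin 43, the main gap junction channel of astrocytes, was at 83.1, 88.4, 80.7 and 81.98 CPM in WT 1 to 4, 124, 125, 128 and 131 CPM in CFT 1 to 4 and 101, 99.4 and 102 CPM in GFP 2 to 4. The groups did not overlap anywhere and stood in the order WT, GFP, CFT. Gja1 was 1.52-fold higher (log2 difference 0.61, SE 0.042, adjusted p = 1.06e-08) in CFT than in WT and 1.26-fold higher (log2 difference 0.33, SE 0.046, adjusted p = 2.48e-05) than in GFP. In WT it was 1.21-fold lower (log2 difference -0.28, SE 0.046, adjusted p = 0.00375) than in GFP.

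Mlc1, a membrane protein of astrocyte junctions and endfeet, was at 106, 115, 117 and 116 CPM in WT 1 to 4, 165, 167, 191 and 188 CPM in CFT 1 to 4 and 146, 155 and 149 CPM in GFP 2 to 4. It had the same order of groups as Gja1 with no overlap. Mlc1 was 1.56-fold higher (log2 difference 0.64, SE 0.052, adjusted p = 6.82e-08) in CFT than in WT and 1.18-fold higher (log2 difference 0.24, SE 0.056, adjusted p = 0.00254) than in GFP. In WT it was 1.32-fold lower (log2 difference -0.40, SE 0.056, adjusted p = 0.00118) than in GFP.

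Aqp4, the water channel of astrocyte endfeet, was at 138, 142, 156 and 153 CPM in WT 1 to 4, 187, 189, 216 and 227 CPM in CFT 1 to 4 and 181, 199 and 205 CPM in GFP 2 to 4. WT libraries were all below the others, and the CFT and GFP libraries overlapped. Aqp4 was 1.39-fold higher (log2 difference 0.47, SE 0.063, adjusted p = 3.58e-05) in CFT than in WT and 1.32-fold lower (log2 difference -0.40, SE 0.069, adjusted p = 0.00717) in WT than in GFP. For the fall the adjusted p became 0.0656 without GFP 3 and 0.0833 without GFP 4. The difference of CFT from GFP was 0.07 (SE 0.068, adjusted p = 0.501). The ratio of Gfap to Aqp4 within a library was 1.93 to 2.31 in WT, 2.66 to 2.79 in CFT and 2.69 to 2.86 in GFP.

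Hepacam, the adhesion protein that binds MLC1, was at 60.8 to 64.5 CPM in WT, 71.8 to 77.6 CPM in CFT and 67.3 to 75.4 CPM in GFP. It rose 1.19-fold in CFT against WT (adjusted p = 0.000566), while its log2 difference of -0.21 in WT against GFP had an adjusted p of 0.0691, without overlap of the groups. Gjb6, the gene of connexin 30, which marks mature astrocytes, had 13, 14 and 12 reads in all WT, CFT and GFP libraries together and was not tested. These come to 0.189 CPM (0.101 to 0.324), 0.201 CPM (0.110 to 0.337) and 0.279 CPM (0.144 to 0.488), with exact 95% Poisson intervals that cover counting error only. No difference in Gjb6 was detectable at this depth.

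**Figure D2:**
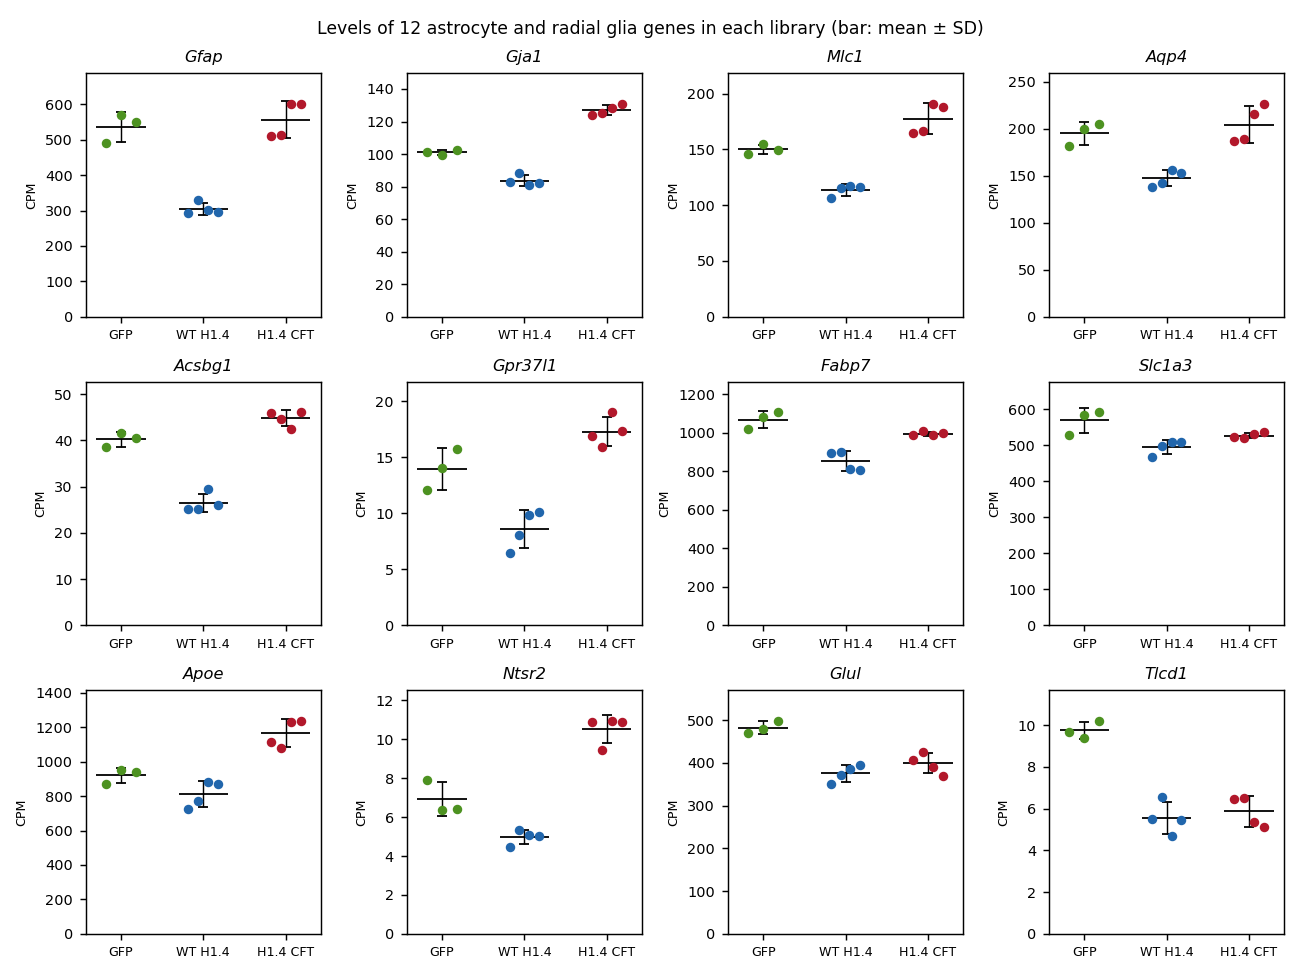
Level of 12 members in CPM in each library (points), by group on the horizontal axis, with the mean and SD of each group as bars and the vertical axes starting at 0. The mean of WT is the lowest in each panel. Every CFT library is above all others in Gja1, Mlc1, Acsbg1, Gpr37l1, Apoe and Ntsr2, and every GFP library in Fabp7, Glul and Tlcd1.

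Among the genes of glutamate handling and ion transport, Glul and Slc1a3 fell in WT against GFP and Ttyh1 rose in CFT against WT. Glul, the glutamine synthetase that turns glutamate into glutamine in astrocytes, was at 351, 372, 385 and 396 CPM in WT 1 to 4, 408, 426, 391 and 371 CPM in CFT 1 to 4 and 470.1, 480.1 and 499 CPM in GFP 2 to 4. Every GFP library was above every WT and CFT library, and WT and CFT overlapped. Glul was 1.28-fold lower (log2 difference -0.36, SE 0.051, adjusted p = 0.00118) in WT than in GFP and 1.21-fold lower (log2 difference -0.28, SE 0.051, adjusted p = 0.000414) in CFT than in GFP. Its difference between CFT and WT was 0.09 (SE 0.047, adjusted p = 0.172), and it was 0.21 within libraries 1 and 2 and -0.04 within libraries 3 and 4.

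Slc1a3, the glutamate transporter GLAST of radial glia and astrocytes, was at 467, 497, 509 and 509.6 CPM in WT 1 to 4, 522, 519.6, 531 and 537 CPM in CFT 1 to 4 and 530.1, 586 and 592 CPM in GFP 2 to 4. The WT libraries lay just under the CFT libraries without overlap, and GFP 3 and GFP 4 were the highest. Slc1a3 was 1.15-fold lower (log2 difference -0.20, SE 0.047, adjusted p = 0.0421) in WT than in GFP, close to the threshold. The adjusted p became 0.143 without WT 1, 0.11 without WT 2, 0.0733 without WT 3, 0.0787 without WT 4, 0.0511 without CFT 3, 0.272 without GFP 3 and 0.325 without GFP 4. In CFT against WT its difference was 0.09 (SE 0.043, adjusted p = 0.11), and against GFP it was -0.11 (SE 0.047, adjusted p = 0.081), with an adjusted p of 0.0166 without GFP 2. The ratio of Gfap to Slc1a3 within a library was 0.580 to 0.661 in WT, 0.976 to 1.13 in CFT and 0.924 to 0.973 in GFP, so Gfap differed by more than this transporter did.

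Slc1a2, the glutamate transporter GLT-1, was not called in any comparison, with 119 to 131 CPM in WT, 122 to 144 CPM in CFT and 118 to 134 CPM in GFP. Its log2 difference was 0.08 (SE 0.055, adjusted p = 0.249) in CFT against WT and 0.00 in WT against GFP. The first was 0.21 within libraries 1 and 2 (adjusted p = 0.00024) and -0.05 within libraries 3 and 4. With library size alone it was 0.17 (adjusted p = 0.0101). Ttyh1, a tweety family membrane protein of radial glia and astrocytes, rose 1.12-fold in CFT against WT (adjusted p = 0.00522), with 278 to 299 CPM in WT and 307 to 329.6 CPM in CFT. Atp1b2, a subunit of the sodium pump, had log2 differences of 0.11, -0.07 and -0.18 in CFT against WT, CFT against GFP and WT against GFP and passed in none. Its adjusted p in the first was 0.0616, and became 0.0247 without WT 4 and 0.0491 without CFT 4. Slc4a4, the sodium bicarbonate cotransporter, had log2 differences of 0.16, 0.03 and -0.12 in the same order. With the replicate number as a block the first of these was 0.15 (adjusted p = 0.0335), and without CFT 4 its adjusted p was 0.0424.

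Among the metabolic genes Acsbg1 and Plpp3 rose in CFT against WT, and Acsbg1 and Tlcd1 fell in WT against GFP. Acsbg1, an acyl-CoA synthetase for long fatty acids, was at 25.1, 25.1, 29.4 and 26.1 CPM in WT 1 to 4, 45.97, 44.6, 42.4 and 46.1 CPM in CFT 1 to 4 and 38.5, 41.6 and 40.6 CPM in GFP 2 to 4. The WT libraries lay far below the others, and each CFT library was above each GFP library by a small step. Acsbg1 was 1.69-fold higher (log2 difference 0.76, SE 0.064, adjusted p = 9.47e-08) in CFT than in WT and 1.52-fold lower (log2 difference -0.60, SE 0.07, adjusted p = 0.000132) in WT than in GFP. Against GFP its difference in CFT was 0.15 (SE 0.068, adjusted p = 0.0913).

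Tlcd1, a TLC domain protein of membrane lipids with few reads, was at 5.53, 6.58, 4.69 and 5.46 CPM in WT 1 to 4, 6.47, 6.53, 5.34 and 5.13 CPM in CFT 1 to 4 and 9.66, 9.40 and 10.2 CPM in GFP 2 to 4. The GFP libraries were above all others, and WT and CFT overlapped. Tlcd1 was 1.77-fold lower (log2 difference -0.82, SE 0.14, adjusted p = 0.00497) in WT than in GFP and 1.67-fold lower (log2 difference -0.74, SE 0.14, adjusted p = 0.000508) in CFT than in GFP. In the former comparison the adjusted p became 0.0553 without GFP 4. Its difference between CFT and WT was 0.08 (SE 0.13, adjusted p = 0.667). Plpp3, a phosphatase of lipid phosphates, rose 1.18-fold in CFT against WT (adjusted p = 0.000267), with 107 to 116 CPM in WT and 122 to 136 CPM in CFT, and its log2 difference was -0.16 (SE 0.046, adjusted p = 0.109) in WT against GFP.

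Aldh1l1, the folate enzyme widely used to mark astrocytes, was at 32.2 to 43.9 CPM in WT, 37.6 to 56.9 CPM in CFT and 54.4 to 61.7 CPM in GFP, with WT 3 and WT 4 below WT 1 and WT 2, and CFT 3 and CFT 4 below CFT 1 and CFT 2. None of its 3 log2 differences passed. They were 0.28 (SE 0.16, adjusted p = 0.202) in CFT against WT, -0.32 (SE 0.17, adjusted p = 0.185) in CFT against GFP and -0.60 (SE 0.17, adjusted p = 0.179) in WT against GFP. With the replicate number as a block all 3 passed, at 0.27 (adjusted p = 0.00317), -0.42 (adjusted p = 0.000193) and -0.70 (adjusted p = 4.74e-05) in that order. The last also passed with DESeq2 (adjusted p = 0.0022) and in a fit of the compared groups alone (adjusted p = 0.00319). Aldoc, the brain aldolase of glycolysis, was at 264 to 289 CPM in WT, 211 to 281 CPM in CFT and 247 to 285 CPM in GFP, with CFT 3 and CFT 4 (214 and 211 CPM) below all other libraries. Its difference in CFT against WT was -0.17 (SE 0.099, adjusted p = 0.219). Ppp1r3c, which targets a phosphatase to glycogen, was at 46.2 to 61.4 CPM in WT, 36.1 to 50.7 CPM in CFT and 40.6 to 61.2 CPM in GFP, with a difference of -0.32 (SE 0.18, adjusted p = 0.199) in CFT against WT that was -0.33 (adjusted p = 8.19e-05) with the block.

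Of the secreted proteins Apoe and Clu rose in CFT against both other groups. Apoe, the apolipoprotein E by which astrocytes export cholesterol, was at 723, 771, 884 and 869 CPM in WT 1 to 4, 1117, 1080.5, 1231 and 1239 CPM in CFT 1 to 4 and 869, 953 and 939 CPM in GFP 2 to 4. All CFT libraries were above all others, while WT 3 lay above GFP 2. Apoe was 1.44-fold higher (log2 difference 0.52, SE 0.064, adjusted p = 1.69e-05) in CFT than in WT and 1.27-fold higher (log2 difference 0.34, SE 0.069, adjusted p = 0.00157) than in GFP. Its difference in WT against GFP was -0.18 (SE 0.069, adjusted p = 0.293).

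Clu, the extracellular chaperone clusterin, was at 148, 166, 129.7 and 149 CPM in WT 1 to 4, 194, 196, 192 and 199.97 CPM in CFT 1 to 4 and 177, 139 and 132 CPM in GFP 2 to 4. The CFT libraries were above all others, and WT and GFP overlapped widely. Clu was 1.32-fold higher (log2 difference 0.40, SE 0.089, adjusted p = 0.00467) in CFT than in WT and 1.31-fold higher (log2 difference 0.39, SE 0.097, adjusted p = 0.0108) than in GFP. Against GFP it was 0.14 within libraries 1 and 2 and 0.54 within libraries 3 and 4.

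Cst3, the protease inhibitor cystatin C, was at 602, 632, 594 and 589 CPM in WT 1 to 4, 621, 633, 510.02 and 539.99 CPM in CFT 1 to 4 and 607, 725 and 726 CPM in GFP 2 to 4. CFT 3 and CFT 4 were the lowest libraries and GFP 3 and GFP 4 the highest, and CFT 1 and CFT 2 overlapped the GFP range. Cst3 was 1.19-fold lower (log2 difference -0.25, SE 0.077, adjusted p = 0.0245) in CFT than in GFP. The adjusted p became 0.0742 without CFT 4, 0.0924 without GFP 3 and 0.0977 without GFP 4, and 0.0552 with library size as the only scaling. The difference was 0.05 within libraries 1 and 2 and -0.47 within libraries 3 and 4. Sparcl1, the secreted matrix protein hevin, was at 315 to 390.1 CPM in WT, 233 to 321 CPM in CFT and 305 to 345 CPM in GFP, and its difference in CFT against WT was -0.33 (SE 0.12, adjusted p = 0.0614). Its adjusted p was 0.0295 without CFT 1 and 0.0412 without CFT 2, and with the replicate number as a block the difference was -0.34 (adjusted p = 6.7e-06).

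The receptor genes Ntsr2 and Gpr37l1 had the largest log2 differences of the tested members in CFT against WT. Ntsr2, the neurotensin receptor of astrocytes, was at 4.44, 5.35, 5.07 and 5.04 CPM in WT 1 to 4, 10.9, 9.46, 10.96 and 10.9 CPM in CFT 1 to 4 and 7.92, 6.38 and 6.43 CPM in GFP 2 to 4. The groups did not overlap and stood in the order WT, GFP, CFT. Ntsr2 was 2.12-fold higher (log2 difference 1.09, SE 0.12, adjusted p = 1.35e-06) in CFT than in WT and 1.53-fold higher (log2 difference 0.61, SE 0.13, adjusted p = 0.00122) than in GFP, and its difference in WT against GFP was -0.48 (SE 0.14, adjusted p = 0.112).

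Gpr37l1, a G-protein-coupled receptor of astrocytes, was at 6.45, 8.03, 9.81 and 10.1 CPM in WT 1 to 4, 16.9, 15.9, 19.02 and 17.3 CPM in CFT 1 to 4 and 12.1, 14.02 and 15.7 CPM in GFP 2 to 4. The order of groups was again WT, GFP, CFT without overlap. Gpr37l1 was 2.01-fold higher (log2 difference 1.01, SE 0.12, adjusted p = 5.4e-06) in CFT than in WT and 1.63-fold lower (log2 difference -0.70, SE 0.14, adjusted p = 0.0139) in WT than in GFP, where the adjusted p became 0.0531 without WT 2, 0.086 without GFP 3 and 0.18 without GFP 4. Its difference in CFT against GFP was 0.31 (SE 0.13, adjusted p = 0.0845), with an adjusted p of 0.0499 without WT 1, and with the replicate number as a block it was 0.37 (adjusted p = 0.015).

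Fgfr3, a fibroblast growth factor receptor of radial glia and astrocytes, was at 82.4, 87.6, 91.03 and 90.5 CPM in WT 1 to 4, 108, 107, 104 and 105 CPM in CFT 1 to 4 and 99.5, 111 and 106 CPM in GFP 2 to 4. WT was below the others and CFT and GFP overlapped. Fgfr3 was 1.20-fold higher (log2 difference 0.27, SE 0.046, adjusted p = 0.000162) in CFT than in WT and 1.20-fold lower (log2 difference -0.26, SE 0.05, adjusted p = 0.0102) in WT than in GFP. For the latter the adjusted p became 0.124 without GFP 3 and 0.0871 without GFP 4. Its difference of CFT from GFP was 0.00 with a 95% interval of -0.10 to 0.11.

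All of the cytosolic proteins rose in CFT against WT. Fabp7, the brain lipid-binding protein of radial glia, was at 895, 901, 812 and 809 CPM in WT 1 to 4, 989.9, 1009, 987 and 998 CPM in CFT 1 to 4 and 1018, 1082 and 1108 CPM in GFP 2 to 4. The groups did not overlap and stood in the order WT, CFT, GFP. Fabp7 was 1.17-fold higher (log2 difference 0.22, SE 0.044, adjusted p = 0.000607) in CFT than in WT and 1.25-fold lower (log2 difference -0.32, SE 0.047, adjusted p = 0.0014) in WT than in GFP, and its difference in CFT against GFP was -0.10 (SE 0.047, adjusted p = 0.111).

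Ndrg2, a cytosolic protein abundant in astrocytes, was at 139, 143, 174 and 165 CPM in WT 1 to 4, 212, 205, 216 and 225 CPM in CFT 1 to 4 and 179, 189.8 and 181 CPM in GFP 2 to 4. The groups stood in the order WT, GFP, CFT without overlap. Ndrg2 was 1.38-fold higher (log2 difference 0.47, SE 0.06, adjusted p = 1.69e-05) in CFT than in WT and 1.17-fold higher (log2 difference 0.23, SE 0.065, adjusted p = 0.0133) than in GFP. The second call was lost on leaving out GFP libraries, with an adjusted p of 0.0622 without GFP 2 and 0.0544 without GFP 4. Its difference in WT against GFP was -0.24 (SE 0.065, adjusted p = 0.106), with an adjusted p of 0.0275 without WT 3. S100b, a calcium-binding protein of astrocytes, was at 47.2 to 57.6 CPM in WT, 66.4 to 77.9 CPM in CFT and 59.3 to 74.04 CPM in GFP and rose 1.37-fold in CFT against WT (adjusted p = 0.000388). In WT against GFP its difference was -0.37 (SE 0.087, adjusted p = 0.0578), just outside the threshold, and the adjusted p became 0.0336 without WT 3, 0.034 without CFT 4 and 0.013 without GFP 2. It was also under the threshold with the replicate number as a block (-0.34, adjusted p = 0.00251), with DESeq2 (adjusted p = 0.00808) and in a fit of the compared groups alone (adjusted p = 0.0286).

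Of the transcriptional regulators Sox9 rose in CFT against WT and Id4 rose against GFP. Sox9, a transcription factor needed for the start of gliogenesis, was at 46.6 to 57.5 CPM in WT, 57.8 to 64.3 CPM in CFT and 57.5 to 59.9 CPM in GFP and rose 1.17-fold against WT (adjusted p = 0.00552). Id4, an inhibitor of basic helix-loop-helix factors, was at 25.9, 33.6, 29.4 and 30.04 CPM in WT 1 to 4, 30.6, 33.6, 35.4 and 35.4 CPM in CFT 1 to 4 and 26.95, 26.3 and 27.1 CPM in GFP 2 to 4. The CFT libraries were above all GFP libraries, and the WT libraries overlapped both, with WT 1 below all GFP libraries. Id4 was 1.26-fold higher (log2 difference 0.33, SE 0.083, adjusted p = 0.00462) in CFT than in GFP. In CFT against WT its difference was 0.19 (SE 0.074, adjusted p = 0.0547), close to the threshold, with an adjusted p of 0.0183 without WT 2 and 0.0237 without CFT 1 and 0.0238 with the replicate number as a block.

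Id3, an inhibitor of the same family and a BMP target, was at 16.2 to 19.9 CPM in WT, 16.9 to 23.1 CPM in CFT and 15.6 to 20.5 CPM in GFP, and its difference in CFT against WT was 0.24 (SE 0.11, adjusted p = 0.0958). The adjusted p became 0.0482 without WT 1 and 0.022 without CFT 1, and the difference was -0.04 within libraries 1 and 2 and 0.50 within libraries 3 and 4. Hes5, the Notch target that represses neuronal differentiation, was at 21.3 to 29.8 CPM in WT, 22.7 to 27.9 CPM in CFT and 24.8 to 27.3 CPM in GFP, with log2 differences of 0.02, -0.03 and -0.05 in CFT against WT, CFT against GFP and WT against GFP. None of the 3 passed, and the 95% interval of the first was -0.18 to 0.22.

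Part of the spread within groups followed the library numbers, for which the labels name no batch. In a fit with a term for libraries 3 and 4 against libraries 1 and 2, 7 members were higher in libraries 3 and 4 (Nes, Mlc1, Aqp4, Apoe, Gpr37l1, S100b and Ndrg2) and 4 were lower (Slc4a4, Aldh1l1, Ppp1r3c and Sparcl1), where 3.11% of all genes were higher and 4.57% lower. The largest of these differences in size was -0.44 for Ppp1r3c (adjusted p = 7.51e-08), and Aldh1l1 had -0.35 (adjusted p = 0.000759). The differences between groups were therefore also taken within libraries 1 and 2 and within libraries 3 and 4, where GFP has only GFP 2 in the former.

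All 19 members that rose in CFT against WT were higher within both sets of libraries. Gfap was 0.73 within libraries 1 and 2 and 1.01 within libraries 3 and 4, Gja1 was 0.54 within libraries 1 and 2 and 0.67 within libraries 3 and 4, and Acsbg1 was 0.85 within libraries 1 and 2 and 0.67 within libraries 3 and 4. Vim had the smallest of these, at 0.03 within libraries 1 and 2 and 0.31 within libraries 3 and 4. All 11 members that fell in WT against GFP were lower within both sets, with Gfap at -0.66 within libraries 1 and 2 and -0.91 within libraries 3 and 4. All 7 that rose in CFT against GFP were higher in both sets, and of the 3 that fell 2 were lower in both, the exception being Cst3. In libraries 1 and 2 alone, where GFP has 1 library, Clu (adjusted p = 0.111), Ntsr2 (log2 difference 0.36, adjusted p = 0.217), Id4 (adjusted p = 0.119) and Cst3 did not pass in CFT against GFP. In WT against GFP Slc1a3 (adjusted p = 0.0739), Tlcd1 (adjusted p = 0.0898) and Fgfr3 (adjusted p = 0.0536) did not pass there, and in CFT against WT Vim did not (adjusted p = 0.578). Aldoc differed between CFT and WT by 0.07 within libraries 1 and 2 and -0.44 within libraries 3 and 4, and this difference between the sets was not tested.

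**Figure D3:**
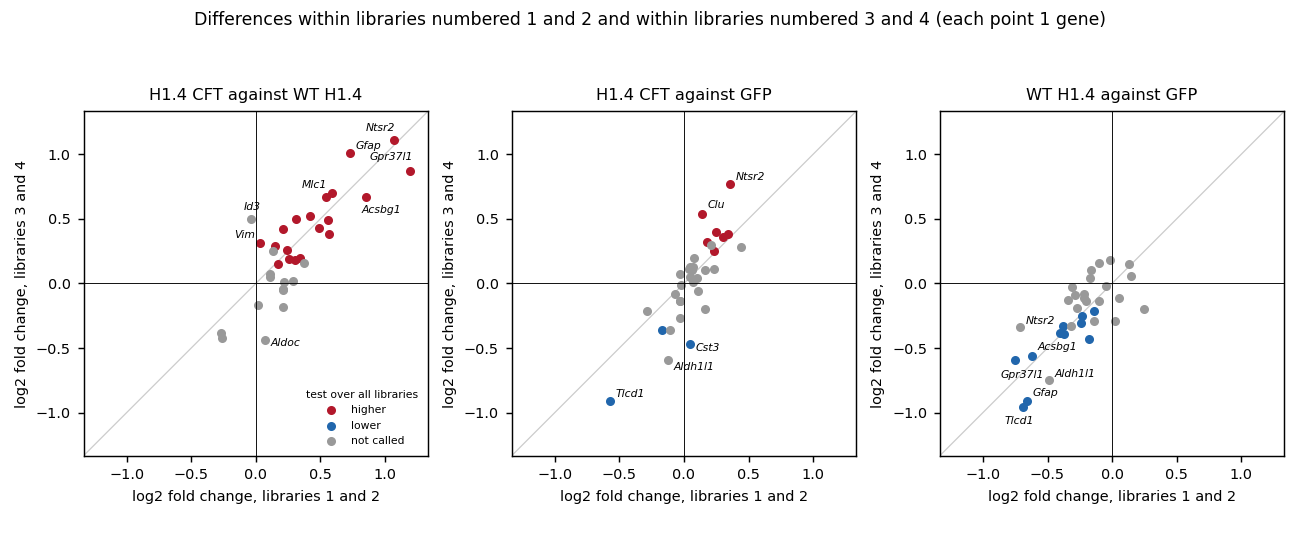
Log2 difference of each tested member within libraries numbered 1 and 2 (horizontal axis) and within libraries numbered 3 and 4 (vertical axis) for each comparison, with the line of equal values in grey and colours for the test over all libraries. Called members lie on the same side of 0 in both sets except Cst3 in the middle panel, at 0.05 within libraries 1 and 2 and -0.47 within libraries 3 and 4.

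Of a further 32 genes of astrocytes and radial glia outside the 34 members 30 were tested. Of these 12 (40%) rose and 2 (6.67%) fell in CFT against WT (median log2 difference 0.23), 8 (26.7%) rose and 4 (13.3%) fell in CFT against GFP (median 0.12), and 0 rose and 2 (6.67%) fell in WT against GFP (median -0.13). The shares over all genes were 16.7% and 19.2% in the first comparison, 13.3% and 16.2% in the second and 0.434% and 0.509% in the last. Against WT the smallest p belonged to Slc25a18, a mitochondrial glutamate carrier (10.4 ± 0.548 against 5.56 ± 0.346 CPM, 1.87-fold higher), Itih3 (2.80-fold higher), the progenitor marker Prom1 (1.59-fold higher) and the urea transporter Slc14a1 (1.79-fold higher). Against GFP it was Acsl6, an acyl-CoA synthetase that fell 1.33-fold in CFT, then Prom1 (1.51-fold higher), the matrix protein Tnc (1.20-fold higher) and Gli3 (1.30-fold higher). In WT the falls against GFP were Ednrb, the endothelin receptor (63.8 ± 4.36 against 83.1 ± 9.29 CPM, adjusted p = 0.00503), and Slc25a18 (adjusted p = 0.00717). Sox2 and Sox1, transcription factors of radial glia, were listed at 0 in every library. The annotation is not given, so whether their reads could be counted is unknown, and absence of their RNA is not shown.

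Among receptors, ligands and effectors of the pathways that drive astrocyte fate, genes of each list went both ways in CFT against WT. Of 12 Notch pathway genes 2 (16.7%) rose in CFT against WT, the receptors Notch2 (1.23-fold) and Notch1 (1.22-fold), and 1 (8.33%) fell, the target Nrarp (1.26-fold), beside 16.7% and 19.2% of all genes. The Notch genes thus rose at the rate of all genes. Against GFP the rises were Notch2 (1.17-fold) and Rbpj (1.14-fold) and the fall was Nrarp (1.24-fold). These were 16.7% and 8.33% of the Notch genes, beside 13.3% and 16.2% of all genes. The medians were 0.08, 0.00 and -0.05 in CFT against WT, CFT against GFP and WT against GFP, and none of the 12 passed in the last, where Jag1 (log2 difference 0.29, SE 0.12, adjusted p = 0.351) and Dll3 (log2 difference -0.46, SE 0.19, adjusted p = 0.356) had the smallest p. Of 10 tested BMP pathway and Id genes 4 (40%) rose in CFT against WT (Id2 1.25-fold, Bmpr1a 1.12-fold, Smad5 1.10-fold and Bmpr1b 1.30-fold) and the inhibitor Smad7 fell 1.22-fold. Against GFP, where 13.3% of all genes rose and 16.2% fell, 2 of the 10 rose (Smad5 and Id2) and Smad7 fell 1.35-fold, and none passed in WT against GFP, where Bmpr1b had the smallest p (log2 difference -0.51, SE 0.13, adjusted p = 0.0583). The medians were 0.15, -0.02 and -0.07.

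Of 11 genes of JAK-STAT signalling 5 (45.5%) rose and 3 (27.3%) fell in CFT against WT, beside 16.7% and 19.2% of all genes, and the median was 0.24. Stat3, the factor through which cytokines switch on Gfap, rose 1.31-fold (118 ± 4.02 against 89.98 ± 2.42 CPM, n = 4 each), while Jak1 fell 1.26-fold and the shared receptor Il6st fell 1.22-fold. In WT against GFP Stat3 was the only one of the 11 to pass (9.09%, beside 0.509% of all genes that fell). It was 1.23-fold lower (log2 difference -0.30, SE 0.046, adjusted p = 0.00212), and the median of the list was -0.13. In CFT against GFP Cntfr, a cytokine receptor subunit, rose 1.25-fold, and Jak1 fell 1.31-fold and Il6st 1.16-fold, with a median of 0.05 and a Stat3 difference of 0.10 (SE 0.046, adjusted p = 0.126). There 18.2% of the 11 rose and 18.2% fell, beside 13.3% and 16.2% of all genes. Of 7 tested gliogenic transcription factors Pou3f2 (1.27-fold) and Lhx2 (1.08-fold) rose (28.6%) and Nfix fell 1.10-fold (14.3%) in CFT against WT. These shares stand beside 16.7% and 19.2% of all genes. Against GFP Lhx2 alone rose, 1.13-fold (14.3%, near the 13.3% of all genes), and none fell. None passed in WT against GFP (smallest p: Sox8, log2 difference -0.28, SE 0.085, adjusted p = 0.135).

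Of 20 tested genes that reactive astrocytes are known to switch on, 8 (40%) rose and 3 (15%) fell in CFT against WT (median 0.37), beside 16.7% and 19.2% of all genes. Against GFP 5 (25%) rose and 2 (10%) fell (median 0.32), beside 13.3% and 16.2%, and none passed in WT against GFP (median -0.12, smallest p: Hspb1, log2 difference -0.83, SE 0.24, adjusted p = 0.117). Aspg was at 2.33 ± 0.635 CPM in CFT and 0.238 ± 0.0702 CPM in WT, and Gbp2, an interferon-induced GTPase, at 8.29 ± 2.41 and 3.16 ± 0.593 CPM. Amigo2, an adhesion protein that neurons also express, fell 1.92-fold in CFT against WT and 1.80-fold against GFP, and the sphingosine receptor S1pr3 rose 1.43-fold and 1.47-fold. Gbp2 is induced by interferon in other cell types too.

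Markers of other cells moved beside the astrocyte genes in some comparisons. Of 16 neuron genes 11 (68.8%) fell and 2 rose (Gad1 and Gad2) in CFT against WT, where 19.2% of all genes fell and 16.7% rose. Against GFP, where 16.2% of all genes fell, 12 (75%) fell and 0 rose. The medians were -0.45 and -0.35. Map2 fell 1.46-fold and 1.55-fold in these comparisons, and Dcx 1.47-fold and 1.31-fold. The summed neuron level was lowest in CFT 3 and CFT 4, where the members summed to 7566 and 7666 CPM, beside 7559 and 7589 CPM in CFT 1 and CFT 2. In WT against GFP 2 neuron genes (12.5%) fell, Gad2 1.65-fold and Gad1 1.39-fold, beside 0.509% of all genes. The median there was -0.04, and the summed levels of 10694 to 10859 and 10160.3 to 10703 CPM overlapped. The part of the neuron genes in the members' differences was not tested.

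Ependymal and choroid plexus genes summed to 23.1 to 26.9 CPM in WT, 34.96 to 45.4 in CFT and 23.8 to 28.5 in GFP, and of 8 tested 5 (62.5%) rose in CFT against WT, beside 16.7% of all genes, with the ciliary regulator Foxj1 1.78-fold and Folr1 4.18-fold higher. Vascular and fibroblast genes summed to 68.9 to 85.6 CPM in WT, 79.8 to 91.98 in CFT and 97.4 to 111 in GFP. Of 13 tested 3 (23.1%) fell in WT against GFP, beside 0.509% of all genes, the collagens Col1a2 (2.13-fold), Col3a1 (2.26-fold) and Col1a1 (1.90-fold). In CFT against WT 4 (30.8%) rose and 1 (7.69%) fell, beside 16.7% and 19.2% of all genes, with Tek 3.26-fold higher and Dcn 2.39-fold lower. The part of these cells in the members' differences was not tested.

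Oligodendrocyte lineage genes summed to 480.3 to 578 CPM in WT, 479 to 560.04 in CFT and 475 to 588 in GFP. Of 11 tested 0 were called in CFT against WT, beside 35.9% of all genes. Cspg4 alone was higher in both groups than in GFP (1.34-fold in CFT and 1.50-fold in WT). It made up 9.09% of the 11, where 13.3% of all genes rose in CFT and 0.434% in WT. Microglia were nearly absent, with 7 reads of Cx3cr1 and 4 of Trem2 in all 11 libraries together and 4 of 12 markers tested. Csf1r rose 2.65-fold and P2ry12 fell 1.51-fold in CFT against WT, each 25% of the 4 tested, beside 16.7% and 19.2% of all genes. Of 13 cell cycle genes 3 (23.1%) rose in CFT against WT, near the 16.7% of all genes (Mcm7 1.37-fold, Mcm2 1.23-fold and Aurkb 1.27-fold). All 13 had a log2 difference above 0 there, with a median of 0.21 against 0.02 over all genes. Their sums were 442 to 461 CPM in WT and 462 to 584 in CFT, without overlap. CFT 1 and CFT 2 (467 and 462 CPM) lay just above WT 3 (461 CPM), while CFT 3 and CFT 4 were at 584 and 566 CPM. The GFP sums of 433 to 501 CPM overlapped both groups. Against GFP Mcm7 alone (7.69%, beside 13.3% of all genes) rose, 1.29-fold, and all 13 were above 0 (median 0.14). None passed in WT against GFP (median -0.05), where Birc5 (log2 difference -0.26, SE 0.14, adjusted p = 0.485) and Ccna2 (log2 difference -0.18, SE 0.1, adjusted p = 0.51) had the smallest p.

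**Figure D4:**
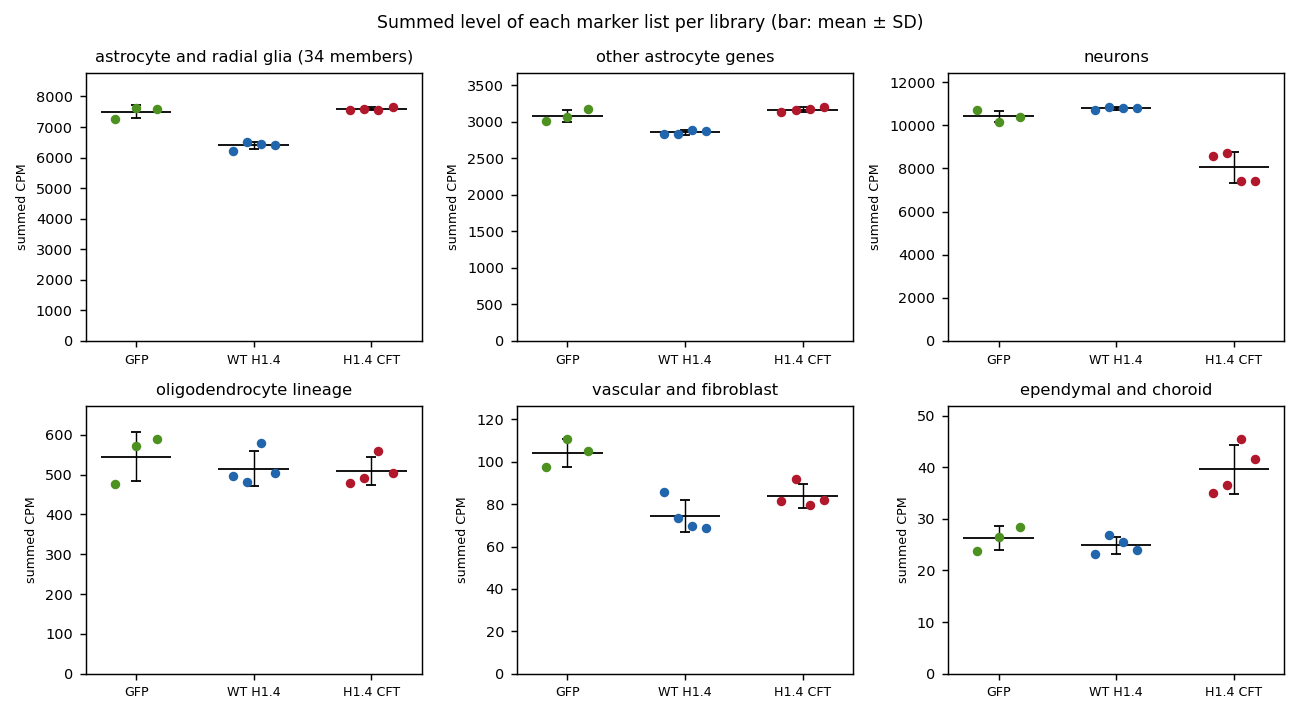
Summed level in CPM of the 34 members and of 5 other marker lists in each library (points), by group on the horizontal axis, with the mean and SD of each group as bars and the vertical axes starting at 0. The members lie at 6229.9 to 6505 CPM in WT and at 7559 to 7666 CPM in CFT, and the neuron genes at 7428 to 8728 CPM in CFT, below all other libraries.

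The span of 9 members overlaps another gene in the GRCr8 table, which served for names only (Mlc1, Hepacam, Glul, Slc4a4, Ttyh1, Plpp3, Clu, S100b and Hes5). The strand setting of the counting is not given, so reads of an overlapping gene cannot be told apart from those of these members.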

How the data were processed

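PolyA RNA of 11 libraries was sequenced. STAR 2.7.2b, HTSeq 0.10.0 and the build mRatBN7.2 are named in the submitters' processing notes. The deposited values are raw counts, whole numbers of reads for each gene symbol. The annotation and strand setting are not given in the sources used here. The counter's 5 summary entries were left out, and the rest, reads in genes, was 45.9% to 46.9% of each library's total.

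Counts were fitted in R 4.3.3 with edgeR 4.0.16 (TMM scaling, group term alone, robust quasi-likelihood test, filterByExpr with minimum count 10 and total 15, Benjamini-Hochberg over 17294 genes, threshold 0.05, 8 residual degrees of freedom, biological coefficient of variation 7.02%). The members and lists were chosen with earlier results of these data known. Every member is named. Values in every library are given for members called in CFT against WT and a comparison with GFP, called in WT against GFP or lower in CFT, and for Gfap, Gja1, Aqp4, Slc1a3, Fabp7 and Nes; Id4 and the ratios of Gfap to other members were added after values were seen. Of other lists up to 4 called genes per comparison are named, by smallest p, and 1 gene of these lists is not reported here.

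Residual correlations of equal numbers were 0.149, 0.174, 0.192 and 0.142 (CFT and WT, 1 to 4), 0.255, 0.124 and 0.163 (CFT and GFP, 2 to 4) and 0.206, 0.113 and 0.0927 (WT and GFP, 2 to 4). All exceeded 0.1 in the first 2 comparisons but not in the last. A pairing by number would hold in every comparison or in none, and these weak correlations do not settle it. The labels name no pairing, and the best partner was often another number. Counts of members called come from the fit without this pairing, except where another setting is named.

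On simulated counts of 17294 genes with 50 changed at each of the folds 1.25, 1.5, 2 and 3, the fit recovered 19, 29, 41 and 48 for CFT against WT, 16, 28, 39 and 47 for CFT against GFP and 15, 32, 37 and 46 for WT against GFP. Among changed genes at a mean of 5 CPM or more, 19 of 37 were recovered at fold 1.25 and 34 of 34 at fold 2 for CFT against WT. For CFT against GFP these were 16 of 37 and 34 of 34, and for WT against GFP 15 of 37 and 33 of 34. Far fewer genes were changed here than the 35.9% and 29.5% called in CFT against WT and CFT against GFP. The cutoff was thus stricter, and the counts do not give the power of those comparisons. The bounds for accepting this simulation were set after its first results were seen. The alternatives were other scalings and filters, DESeq2 1.42.0, limma-voom (limma 3.58.1), a replicate block, a number pair term, contrasts within number pairs, the compared groups alone, a non-robust spread and the omission of each library.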

Additional observations from a re-analysis of the deposited data

Results flagged for a closer look

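In Ntsr2, CFT 2 stood apart from the other CFT libraries, at 9.46 CPM against 10.89 to 10.96 CPM. Its gap to the nearest library was 0.953 of the range of the group, above Dixon's 95% critical value for 4 samples. Of 66 groups of 4 libraries examined 1 was so marked, and chance marks about 1 in 20. The call of Ntsr2 as higher in CFT than in WT held without CFT 2 (adjusted p = 1.32e-06).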

How the results depend on the processing

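Of the members called, the 19 rises of CFT against WT all remained under each alternative except the contrast within libraries 1 and 2, where Vim did not pass. Cst3, called in CFT against GFP, did not pass with library size alone or with the compared groups alone (adjusted p = 0.0548), and Slc1a3, called in WT against GFP, did not pass with a non-robust spread (adjusted p = 0.0613). TMM factors were 1.02 to 1.06 in CFT and 0.970 to 0.980 in WT, so scaling matters for small differences. With upper-quartile scaling Slc1a3, Glul, Atp1b2 and Id4 also rose in CFT against WT (adjusted p = 0.0186, 0.0309, 0.0105 and 0.0224). With library size alone Slc1a2, Slc1a3, Glul, Slc4a4, Atp1b2, Id3 and Id4 were added. GFP 2 is the lone GFP library within libraries 1 and 2 and was taken to vary like the others. Against GFP, 8 of 10 calls in CFT and 6 of 11 in WT remained whichever library was left out. The count of members lower in CFT than in WT was 0, and became 1 with a non-robust spread, 1 with limma-voom, 1 with DESeq2, 2 within libraries 1 and 2, 4 within libraries 3 and 4 and 0 to 1 on leaving out a library. Against GFP the count higher in CFT became 12 with library size alone and 12 within libraries 3 and 4, and the count lower 9 within libraries 3 and 4. In WT against GFP the count lower became 18 without the filter, 20 within libraries 3 and 4 and 6 to 12 on leaving out a library, and the count higher 1 within libraries 3 and 4. Calls over all 17294 genes grew within libraries 3 and 4 too, to 3505 higher and 4056 lower in CFT against WT. Against GFP they were 3001 and 3738 in CFT, and 932 and 676 in WT, where all libraries gave 75 and 88. Within libraries 1 and 2 CFT against WT gave 1998 and 2625.

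With the replicate block, 2 members were lower in CFT than in WT and 6 lower than in GFP, and 14 were lower in WT than in GFP. With a number pair term these were 2, 6 and 18. Whether equal numbers pair libraries is not settled. The block ended no member's call, and in WT against GFP it added Aldh1l1, S100b and Ndrg2 (for Ndrg2 -0.21, adjusted p = 0.0426). Among libraries of WT and GFP, 1 of the 3 WT libraries (WT 2) correlated best with the GFP library of its own number.

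Differences that turned sign belonged to members not called in that comparison, apart from Cst3 against GFP. With library size alone they were Cst3 0.02 (CFT against WT) and Atp1b2 0.01 and Hes5 0.04 (against GFP). Within libraries 1 and 2 they were Aldoc 0.07, Cst3 0.02 and Id3 -0.04 in CFT against WT, Hepacam -0.03, Slc4a4 -0.02, Cst3 0.05 and Hes5 0.16 against GFP and Vim 0.05, Aldoc -0.10, Ppp1r3c -0.02, Cst3 0.02 and Id3 0.25 in WT against GFP, and within libraries 3 and 4 Slc1a2 -0.05, Glul -0.04 and Hes5 -0.18, Slc4a4 -0.01 and Clu 0.04 in that order. Leaving out 1 library gave Hes5 -0.05 to 0.11 in the first, Slc4a4 -0.03 to 0.13, Hes5 -0.08 to 0.02, Gfap -0.01 to 0.09, Ttyh1 -0.02 to 0.05, Ppp1r3c -0.28 to 0.04 and Hepacam -0.02 to 0.06 in the second and Hes5 -0.15 to 0.01, Clu -0.09 to 0.13 and Id3 -0.10 to 0.11 in the third comparison. The causes were not tested.

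Over all genes, CFT against WT gave 2893 higher and 3324 lower, 3711 higher and 2768 lower with upper-quartile scaling and 4986 higher and 2272 lower with library size alone, which moved the median to 0.11; against GFP the splits were 2302 higher and 2796 lower, 2990 higher and 2405 lower and 3739 higher and 2027 lower. In WT against GFP they were 75 higher and 88 lower, 132 higher and 136 lower with DESeq2, 247 higher and 215 lower without the filter, 172 higher and 176 lower with the compared groups alone and 206 higher and 198 lower with the number pair term. Depth limits Gjb6, which could not be tested.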
